A study of Homo sapiens with 21 samples.

Results

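Collagen and laminin chain genes were taken as all genes of the table whose symbol is COL, a number, A and a number, or LAM, A, B or C and a number. The rule found 56 members, 44 collagen and 12 laminin genes, among 26475 genes. Of these, 40 (29 collagens and 11 laminins) had at least 10 counts in at least 3 libraries and were tested, with 15287 genes tested in all. The counts came from poly-A selected RNA of the melanoma line SK-MEL-147, of human origin, in 7 groups of 3 libraries. The groups were cells given JQ-1, which blocks the BET bromodomain proteins, TP-472, which blocks the bromodomains of BRD9 and BRD7, GSK-591, a PRMT5 inhibitor, MS023, an inhibitor of type I arginine methyltransferases, GSK-484, a PADI4 inhibitor, and UNC0642, an inhibitor of EHMT1 and EHMT2, and, last, untreated cells. All groups share a single cell line. The sources used here state no dose, no time and no vehicle. The submitters call the replicates biological but do not state separate cultures, and the p-values cover the spread between libraries alone, which could be technical. The study asked how these epigenetic compounds change gene expression in the melanoma cells.

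Collagens are trimers of alpha chains wound into a triple helix, and many need chains from several genes. Laminins are cross-shaped trimers of an alpha, a beta and a gamma chain, and laminin sheets together with the collagen IV network form the basement membrane on which epithelia and melanocytes rest. The epidermal laminin to which LAMA3 and LAMB3 contribute chains anchors epidermis to dermis together with collagen XVII in the cell membrane and collagen VII in the anchoring fibrils. A trimer can be secreted only when each of its chains is made, so the levels of partner chains are given side by side.

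The upstream DNA of 6 genes is shown because they hold the contrasts described below: COL4A1 and COL4A2, which lie head to head and responded differently to JQ-1, and laminin genes that moved in opposite directions. The sequences are from RefSeq (GRCh38.p14), 5′ to 3′ on the strand of the gene (of COL4A2 for the shared interval), and RefSeq windows matched 41 of the 56 members. The interval between the RefSeq starts of COL4A1 and COL4A2 has 126 bases (chr13:110307158-110307283, plus strand), and its capitals mark a CCAAT box. The outermost GENCODE 29 models of the 2 genes, whose ends are given with their values, overlap from 110305812 to 110307233. That overlap takes in only part of this interval.
COL4A1-COL4A2 interval: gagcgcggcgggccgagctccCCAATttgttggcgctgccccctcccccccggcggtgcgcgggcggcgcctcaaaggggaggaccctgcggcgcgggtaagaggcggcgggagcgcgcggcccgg
The next 5 sequences are the 250 bases before a start, with capitals at matches to the AP-1 motif TGANTCA (N is any base). The LAMA3 window is at chr18:23872770-23873019 (plus strand), with 2 matches. It precedes an internal start, since the GENCODE 29 gene model of LAMA3 runs from 23689443 to 23956222, and the DNA before the outermost start is not shown.
LAMA3 upstream: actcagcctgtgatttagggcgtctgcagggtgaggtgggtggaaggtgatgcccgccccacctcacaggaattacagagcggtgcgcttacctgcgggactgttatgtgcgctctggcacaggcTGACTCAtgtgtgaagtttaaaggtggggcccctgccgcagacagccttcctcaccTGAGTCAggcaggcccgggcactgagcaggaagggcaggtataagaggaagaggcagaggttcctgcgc
LAMB3 has 3 starts, of which the first (chr1:209652426-209652675) and the last (chr1:209651375-209651624, both minus strand) are shown, with 0 and 1 matches.
LAMB3 first start: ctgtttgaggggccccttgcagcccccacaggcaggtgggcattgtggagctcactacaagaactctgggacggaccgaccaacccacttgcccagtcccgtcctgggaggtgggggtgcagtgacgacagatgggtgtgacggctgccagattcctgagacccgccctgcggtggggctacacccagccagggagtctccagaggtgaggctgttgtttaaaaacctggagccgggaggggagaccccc
LAMB3 last start: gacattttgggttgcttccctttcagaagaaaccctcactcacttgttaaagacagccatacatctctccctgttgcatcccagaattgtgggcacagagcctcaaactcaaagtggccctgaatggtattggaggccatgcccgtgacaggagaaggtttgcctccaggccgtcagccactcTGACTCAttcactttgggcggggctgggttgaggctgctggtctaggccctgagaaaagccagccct
LAMB2 is at chr3:49133051-49133300 (minus strand) and LAMC1 at chr1:183023170-183023419 (plus strand), with 0 matches each.
LAMB2 upstream: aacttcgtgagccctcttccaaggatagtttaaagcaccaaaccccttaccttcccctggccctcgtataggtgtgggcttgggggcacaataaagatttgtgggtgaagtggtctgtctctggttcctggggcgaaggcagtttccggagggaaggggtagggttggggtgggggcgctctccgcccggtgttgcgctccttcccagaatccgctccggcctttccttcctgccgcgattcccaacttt
LAMC1 upstream: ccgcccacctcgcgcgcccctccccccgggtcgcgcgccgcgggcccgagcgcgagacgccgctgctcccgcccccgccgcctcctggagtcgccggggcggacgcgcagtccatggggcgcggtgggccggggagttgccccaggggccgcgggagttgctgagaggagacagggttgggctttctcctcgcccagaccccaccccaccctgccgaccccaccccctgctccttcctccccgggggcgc
On either strand, TGANTCA was in 6.57% of 35116 upstream windows and in those of 3 of the 30 tested members that have a window, COL10A1, LAMA3 and LAMB3. CCAAT was in 32% of windows and in 8 of these 30 members, and the GC box GGGCGG in 42.6% and 20. A member was counted if any of its windows matched, whereas the percentages are per window, so the shares are not like for like. These letters describe the windows and do not show that a factor binds there.

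Totals per library ran from 20978182 to 78776788 expected counts, and from 35089548 to 47741066 in untreated cells. Levels are CPM, the count of a gene scaled to the TMM-adjusted library total, for replicates 1, 2 and 3. Fold changes are on the log2 scale. A gene was called where the edgeR quasi-likelihood test gave a Benjamini-Hochberg adjusted p under 0.05 over all genes tested. As a check of the cell line, MITF and SOX10 were over 1 CPM and the pigment genes PMEL, MLANA, TYR, DCT and TYRP1 were not, in every group, while AXL, NGFR, EGFR and SOX9 were all over 1 CPM. Endothelial and leukocyte markers summed to under 2 CPM in every library, and KRT10 was the keratinocyte marker over 1 CPM. TMM sets fold changes relative to the bulk of genes: with totals alone as the scale, the median of all genes with JQ-1 moved to -0.153 and 4 members rose and 27 fell.

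In untreated cells the members spanned a wide range. Compared per kilobase of transcript, COL4A2, a collagen IV chain, led with 72.4 ± 3.09 CPM per kb (SD, n = 3), above COL13A1, a transmembrane collagen, with 63.8 ± 1.29, and LAMB3 with 56.9 ± 1.68. COL18A1, source of endostatin, had 45.4 ± 1.48 CPM per kb and COL7A1 42.8 ± 3.49, and these neighbours did not differ beyond their spread. The laminin chains LAMC1 (33.8 ± 2.60) and LAMB2 (32.7 ± 1.93) lay close together, as did LAMB1 (19.9 to 22.6) and COL4A1 (19.01 to 21.9). COL1A1, a chain of the most abundant skin collagen, had 0.603 ± 0.0339 CPM per kb, while its partner COL1A2 had at most 4 counts and COL3A1 at most 2 counts in any library. COL6A5 had 0 counts in all 21 libraries. Those not tested were COL1A2, COL3A1, COL4A3, COL5A3, COL6A5, COL6A6, COL8A2, COL9A1, COL11A1, COL14A1, COL20A1, COL21A1, COL23A1, COL26A1, COL28A1 and LAMB4. The members nearest to the limit were COL2A1, COL24A1, COL10A1 and COL4A6 inside it, with a third-highest count of 10, 13, 14 and 15, and COL6A6, COL5A3 and COL8A2 outside it, with 8, 7 and 6. Scarce members such as these passed only through their highest libraries, so their calls are not read as support.

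JQ-1 gave the most calls of the compounds over untreated cells, among the chain genes as among all genes. Most of its calls in chain genes were falls, and laminin chains were called in both directions. Of the 40 tested, 7 rose, 25 fell and 8 did not pass, set beside a background of 72.5% of all genes, 35.4% higher and 37.2% lower. The median log2 fold change was -0.77 over the members and -0.0077 over all genes tested. By class, 6 of 6 fibril-associated collagens fell, 4 of 7 network-forming ones and 2 of 3 transmembrane ones, with no rise in these classes. Of the 7 fibrillar collagens 3 rose and 2 fell, and of the 11 laminins 3 rose and 8 fell. The fibrillar rises, and so the 7 rises in all, include the scarce COL2A1, whose call is not read as support. In bulk libraries, fewer cells that express a gene and less RNA per cell cannot be told apart. Fibroblast markers, of which 2 of 7 were over 1 CPM with JQ-1 and 3 of 7 in untreated cells, summed to 20.6 to 23 CPM with JQ-1 and 34.7 to 40.7 CPM in untreated cells, with DCN and FAP at 0 in both. Over the other marker lists, undifferentiated melanoma genes summed to 2410 to 2450 CPM with JQ-1 and 2030 to 2090 CPM in untreated cells, and leukocyte genes to 0.137 to 0.252 and 0.703 to 0.943 CPM. Melanocyte genes summed to 609 to 623 CPM with JQ-1 and 364 to 383 CPM in untreated cells, keratinocyte genes to 20.8 to 24.5 and 29.5 to 34.7 CPM, and endothelial genes to 0.441 to 1.18 and 1.45 to 1.71 CPM. Such sums follow the most abundant genes of a list. Of the 4 undifferentiated melanoma genes, 2 were called higher and 1 lower with JQ-1 (median log2 fold change -0.017). Called higher and lower were 3 and 0 of 5 tested melanocyte genes, 0 and 3 of 4 fibroblast genes and 0 and 3 of 4 endothelial genes. For keratinocyte and for leukocyte genes it was 0 and 1 of 2, beside the same 72.5% of all genes. The part of these markers in the result was not tested.

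**Figure D1:**
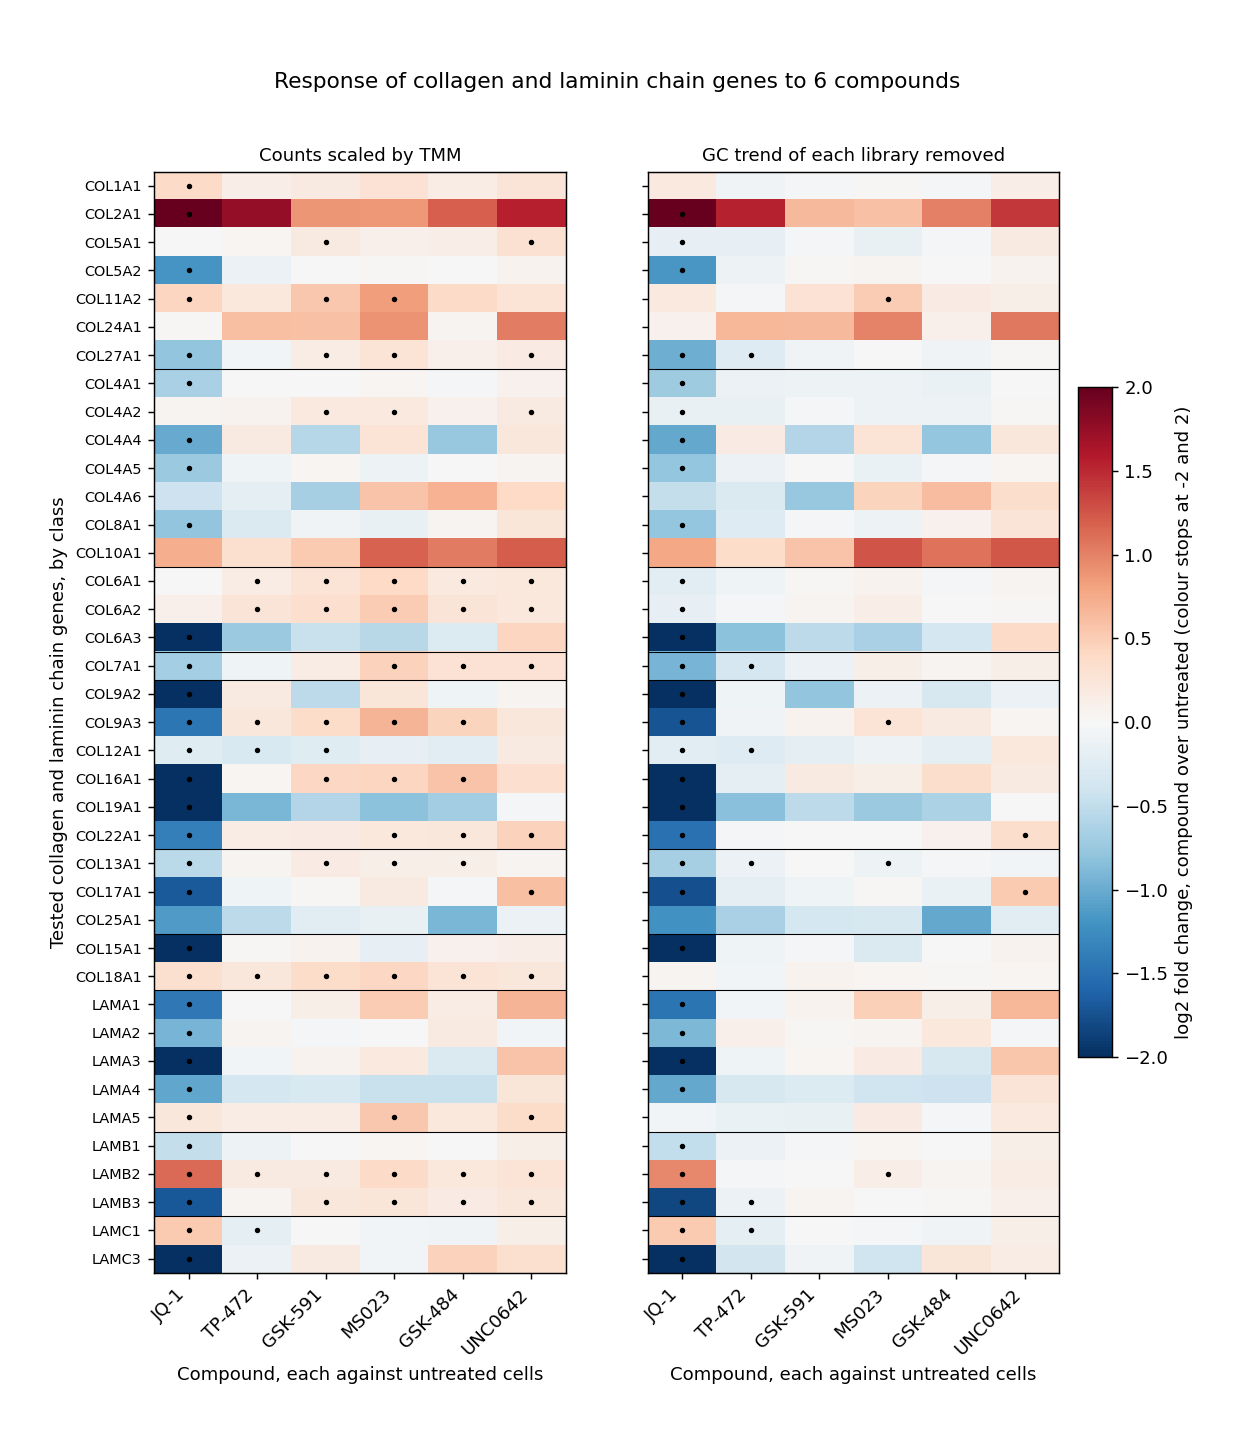
Log2 fold change of 39 of the 40 tested collagen and laminin chain genes (rows, by class) for 6 compounds (columns) over untreated cells, as counted by TMM scaling (left) and with the GC trend of each library removed (right), where a dot marks an edgeR adjusted p under 0.05. JQ-1 has 31 dots on each side, GSK-591 has 13 on the left and 0 on the right, and GSK-484 has 10 and 0.

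LAMA3 and LAMB3, whose products join in the epidermal laminin, fell with JQ-1. LAMB3 had 74.2, 75.2 and 78.2 CPM with JQ-1, against 244, 252 and 238 CPM in untreated cells (log2 fold change of -1.69 with SE 0.038, adjusted p = 1.41e-20 by edgeR; chromosome 1, 209614870 to 209652466, with hg38 gene models of GENCODE 29). LAMA3 was scarce throughout, with 1, 4 and 3 counts with JQ-1 and 37, 24 and 19 in untreated cells (log2 fold change of -2.95 with SE 0.46, adjusted p = 4.73e-06 by edgeR). The groups did not overlap for either chain. The summed counts of LAMA3, 8 with JQ-1 and 80 in untreated cells, gave a ratio of 0.124 after scaling (95% exact interval 0.0517 to 0.256, counting error only).

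LAMB2 and LAMC1, a beta and the main gamma chain of laminins outside the epidermal trimer, went up. LAMB2 had 398, 402 and 415 CPM with JQ-1, against 189, 194 and 173 CPM in untreated cells (log2 fold change of 1.13 with SE 0.045, adjusted p = 4.07e-16 by edgeR; chromosome 3, 49121114 to 49133118), and the JQ-1 libraries were all far above the rest. LAMC1 had 378, 388 and 384 CPM with JQ-1, against 284, 271 and 244 CPM in untreated cells (log2 fold change of 0.52 with SE 0.051, adjusted p = 3.56e-09 by edgeR; chromosome 1, 183023460 to 183145592). LAMB1, the other widespread beta chain, went down: it had 88.1, 90.5 and 88.5 CPM with JQ-1, against 129, 129 and 114 CPM in untreated cells (log2 fold change of -0.48 with SE 0.045, adjusted p = 1.88e-09 by edgeR). Among alpha chains, LAMA4 had 0.827, 0.897 and 0.481 CPM with JQ-1 and 1.76, 1.40 and 1.44 CPM in untreated cells (log2 fold change of -1.04 with SE 0.26, adjusted p = 0.00119 by edgeR). LAMA1 and LAMA2 fell too, by 1.44 and 0.92 on the log2 scale, and LAMA2 was no longer called without JQ-1 replicate 1 (-0.80, edgeR adjusted p = 0.0505). LAMC3 (-1.995, SE 0.77) lost its call without JQ-1 replicate 1 (-1.39), untreated replicate 1 (-1.92) or untreated replicate 3 (-1.85). LAMA5, the alpha chain of laminins of mature basement membranes, had 21.8, 21.7 and 23.1 CPM with JQ-1 and 20.5, 19.8 and 16.7 CPM in untreated cells (log2 fold change of 0.22 with SE 0.079, adjusted p = 0.0137 by edgeR), and this call was lost without JQ-1 replicate 3 (0.20) or untreated replicate 3 (0.14). With the GC trend of each library removed (explained below), LAMA5 stood at -0.050 and the other laminin calls held. Summed over the laminins, JQ-1 libraries held 961 to 991 CPM and untreated ones 792 to 874 CPM, although 8 of 11 genes fell. Collagens summed to 1803 to 1859 CPM with JQ-1 and 2021 to 2239 CPM in untreated cells.

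**Figure D2:**
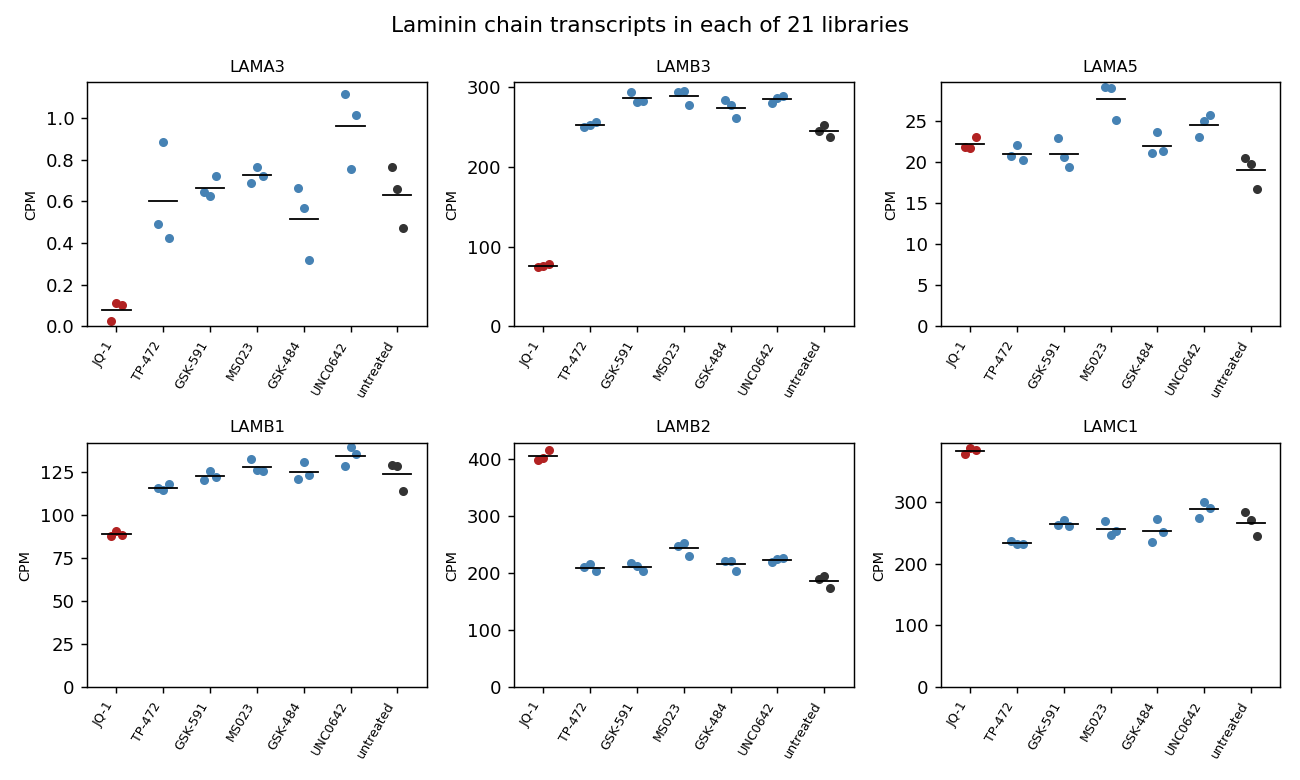
CPM (linear axis from 0) of 6 laminin chain genes in each of 21 libraries, with points for libraries and bars for the mean of each group of 3, JQ-1 in red, other compounds in blue and untreated cells in black. LAMA3 and LAMB3 are lowest with JQ-1, and LAMB2 (398 to 415 CPM) and LAMC1 (378 to 388 CPM) highest.

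Because trimers need their chains together, the ratio of counts of 2 partners within a library was compared, without correction for length or GC content. LAMB1 over LAMC1 was 0.234, 0.234 and 0.230 with JQ-1 and 0.455, 0.474 and 0.468 in untreated cells, and LAMB2 over LAMC1 was 1.05, 1.04 and 1.08 with JQ-1 and 0.666, 0.715 and 0.710 in untreated cells. The beta chains LAMB3 and LAMB2, which are alternatives and not partners of a trimer, had a ratio of 0.187, 0.187 and 0.189 with JQ-1 and 1.29, 1.30 and 1.37 in untreated cells. Exact permutation tests, two-sided over 20 regroupings cannot give less than p = 0.1, and 35 of 78 ratio tests over the 6 compounds reached it (adjusted p = 0.223). The 3 ratios above were among them with JQ-1. LAMB2 over LAMC1 was above untreated cells with the other compounds too. Its log2 ratio minus that of untreated cells was 0.60 with JQ-1, 0.44 with MS023, 0.36 with TP-472 and 0.29 with GSK-484. It was 0.19 with GSK-591 and 0.15 with UNC0642 (exact permutation p = 0.1 for each compound).

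Collagen IV, the network of basement membranes, had chains that differed in their response to JQ-1. COL4A1 had 85.6, 87.2 and 88.6 CPM with JQ-1, against 145, 139 and 126 CPM in untreated cells (log2 fold change of -0.65 with SE 0.049, adjusted p = 3.24e-11 by edgeR; chromosome 13, 110148963 to 110307233). Its partner from the shared interval, COL4A2 (chromosome 13, 110305812 to 110513209), had 482, 494 and 492 CPM with JQ-1, against 488, 474 and 448 CPM in untreated cells (log2 fold change of 0.058 with SE 0.040, adjusted p = 0.202 by edgeR). COL4A1 over COL4A2 was 0.177, 0.176 and 0.180 with JQ-1 and 0.297, 0.293 and 0.281 in untreated cells, without overlap (exact permutation p = 0.1). The log2 ratio minus that of untreated cells was -0.70 with JQ-1. With the other compounds it was also negative, from -0.19 to -0.085 (exact permutation p = 0.1 for each). The X-linked chain COL4A5 fell as well, with 21.4, 20.03 and 22.2 CPM with JQ-1, against 38.6, 33.05 and 34.9 CPM in untreated cells (log2 fold change of -0.75 with SE 0.058, adjusted p = 5.94e-11 by edgeR), while its partner COL4A6 was too scarce to judge (-0.41, SE 0.48).

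Fibrillar collagen V and microfibrillar collagen VI also had chains with unlike values. COL5A2 had 20.1, 20.6 and 21.6 CPM with JQ-1, against 49.6, 45.9 and 45.2 CPM in untreated cells (log2 fold change of -1.18 with SE 0.060, adjusted p = 3.01e-14 by edgeR), whereas COL5A1, whose product makes up most of the trimer, had 96.05, 98.3 and 94.6 CPM with JQ-1 and 98.4, 101 and 88.7 CPM in untreated cells (log2 fold change of 0.0024 with SE 0.058, adjusted p = 0.972 by edgeR). COL5A2 over COL5A1 was 0.209, 0.210 and 0.228 with JQ-1 and 0.504, 0.452 and 0.510 in untreated cells. COL6A1 (-0.0019, SE 0.049) and COL6A2 (0.10, SE 0.051) did not pass. COL6A3, the third chain of collagen VI, had 0, 2 and 1 counts with JQ-1 and 29, 8 and 9 counts in untreated cells (log2 fold change of -3.46 with SE 0.74, adjusted p = 0.000216 by edgeR), that is 3 and 46 counts in all. With the GC trend removed, COL4A2 (-0.15, SE 0.046), COL5A1 (-0.17, SE 0.056), COL6A1 (-0.23, SE 0.042) and COL6A2 (-0.17, SE 0.048) were called lower, and COL4A2, COL5A1 and COL6A2 had small positive values before, while COL4A1, COL5A2 and COL6A3 were lower than these partners in both fits.

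**Figure D3:**
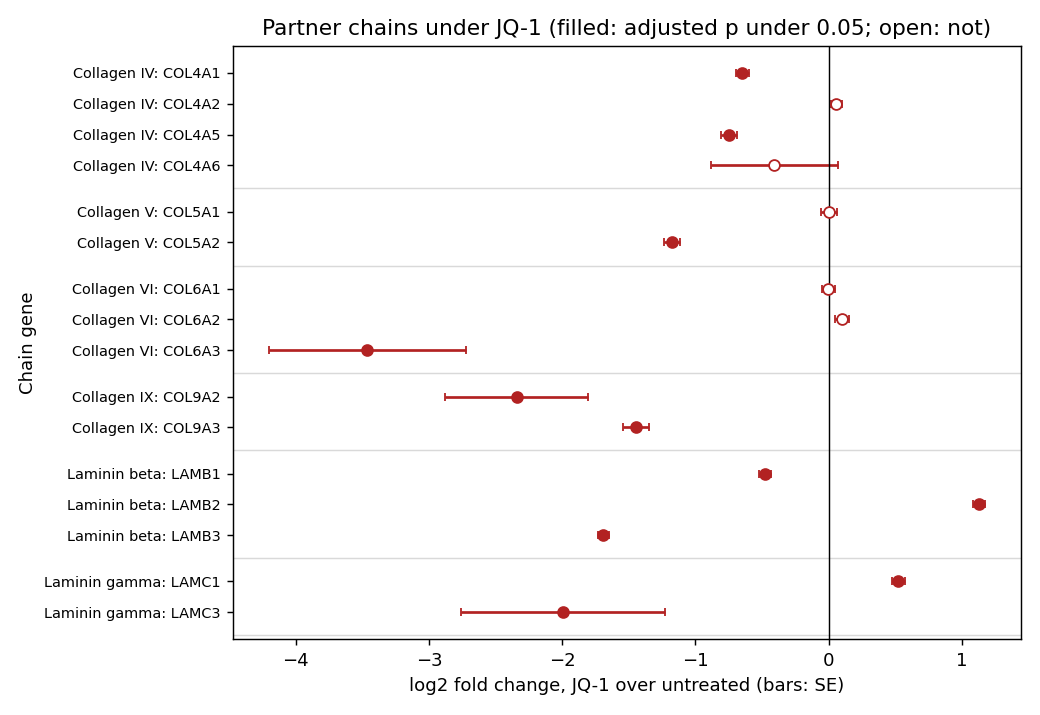
Log2 fold change of JQ-1 over untreated cells for chains of collagens IV, V, VI and IX and for laminin beta and gamma chains, with bars for the SE, filled where the edgeR adjusted p is under 0.05. COL4A2, COL5A1, COL6A1 and COL6A2 lie near 0, COL4A1, COL5A2 and COL6A3 lie below them, and LAMB2 and LAMC1 are the filled points above 0.

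Among the other collagens, those of the epidermal junction and the fibril-associated ones fell with JQ-1. COL16A1 had 1.02, 1.01 and 0.893 CPM with JQ-1, against 5.71, 5.34 and 4.84 CPM in untreated cells (log2 fold change of -2.44 with SE 0.17, adjusted p = 7.42e-12 by edgeR; chromosome 1, 31652247 to 31704319), and COL17A1 had 1.99, 1.91 and 1.68 CPM with JQ-1, against 5.90, 6.08 and 6.08 CPM in untreated cells (log2 fold change of -1.69 with SE 0.096, adjusted p = 2.29e-13 by edgeR; chromosome 10, 104031286 to 104085957). COL16A1 is a fibril-associated collagen and COL17A1 the hemidesmosome collagen. COL9A3 had 4.57, 5.19 and 4.59 CPM with JQ-1, against 12.4, 12.7 and 14.1 CPM in untreated cells (log2 fold change of -1.45 with SE 0.097, adjusted p = 4.03e-12 by edgeR), and its partner COL9A2 had 10 counts with JQ-1 and 64 in untreated cells in all (ratio 0.193, 95% exact interval 0.0886 to 0.379, counting error only). COL7A1, which forms the anchoring fibrils, had 239.6, 249 and 254 CPM with JQ-1 and 414, 418 and 359.7 CPM in untreated cells (log2 fold change of -0.68 with SE 0.059, adjusted p = 4.26e-10 by edgeR). By the same test, falls were also seen in COL22A1 (-1.37, SE 0.069), COL15A1 (-2.08, SE 0.28), COL27A1 (-0.79, SE 0.048), COL8A1 (-0.79, SE 0.12) and COL13A1 (-0.53, SE 0.040). COL12A1 (-0.24, SE 0.081) lost its call without untreated replicate 1 (-0.13), and COL4A4 (-1.02, SE 0.44) lost it without any of 4 libraries, JQ-1 replicates 1 (-0.91) and 3 (-0.72) and untreated replicates 1 (-0.74) and 2 (-0.97).

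Rises of collagens with JQ-1 were few. COL1A1 had 4.91, 5.27 and 5.77 CPM with JQ-1, against 4.16, 4.22 and 3.80 CPM in untreated cells (log2 fold change of 0.39 with SE 0.13, adjusted p = 0.00941 by edgeR). COL11A2, a minor fibrillar chain, had 3.64, 2.72 and 2.71 CPM with JQ-1 and 2.503, 1.97 and 2.26 CPM in untreated cells (log2 fold change of 0.43 with SE 0.17, adjusted p = 0.032 by edgeR), and without JQ-1 replicate 1 its call was lost (0.27, edgeR adjusted p = 0.21), as without untreated replicate 2 (0.35) or 3 (0.43). COL18A1 rose by 0.32 (SE 0.051). None of these 3 was called with the GC trend removed. COL19A1 and COL2A1, both scarce and outside the naming rule, were picked after their values were seen. COL19A1 had 6 counts with JQ-1 and 195 in untreated cells (ratio 0.0381, 95% exact interval 0.0138 to 0.0844), and COL2A1 had 49 counts with JQ-1 and 6 in untreated cells (ratio 10.1, 4.33 to 28.9), intervals that cover counting error only. COL19A1 shares exonic sequence on the opposite strand with LMBRD1, at 21.3 CPM against 0.989 CPM of COL19A1 over all libraries, and strand use is not stated, so reads of the 2 genes cannot be told apart. Likewise COL9A3 (15 CPM over all libraries) overlaps TCFL5 (42.1 CPM) and LAMA5 (22.5 CPM) overlaps ADRM1 (106 CPM), neighbours with higher levels than the members. LAMB1 (120 CPM) overlaps DLD (48.9 CPM) and COL18A1 (323 CPM) overlaps SLC19A1 (13 CPM). LAMB2 (240 CPM) has a pseudogene copy, LAMB2P1, at 1.52 CPM. The values of these members, with JQ-1 and with the other compounds, are uncertain by the reads that could be shared.

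Treated and untreated libraries differed in how counts followed base composition. The slope of log2 CPM on transcript GC content, per 10 percentage points over all genes, was -0.320 to -0.159 in the 18 treated libraries and -0.461 to -0.379 in the 3 untreated ones, without overlap. The tested members had a median GC content of 56.0%, against 48.9% over all genes tested. Across members, which share libraries and are not replicates, Spearman correlations of fold change with GC content were 0.457 for TP-472, 0.513 for GSK-591, 0.473 for MS023, 0.545 for GSK-484, 0.11 for UNC0642 and 0.151 for JQ-1, and over all 14772 genes with a GC value 0.609, 0.606, 0.673, 0.632, 0.536 and 0.188. A further fit took out the GC trend library by library. Another set each compound against the remaining treated groups, leaving JQ-1 out of them, alone and with the trend taken out. All 6 compounds were compared with the same untreated libraries. With JQ-1, 3 members rose and 29 fell with the trend removed (background of 73.2% of all genes, 36.4% higher and 36.8% lower). Against the other treated groups 3 rose and 28 fell (background of 77.2% of all genes, 38.0% higher and 39.2% lower), and likewise 3 and 28 with the trend removed (background of 78.2% of all genes, 39.2% higher and 39.0% lower). LAMB2 and LAMC1 were called higher, and 24 members lower, in the TMM fit, the fit with the trend removed and the last of these. So was the scarce COL2A1, whose rise is not read as support.

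**Figure D4:**
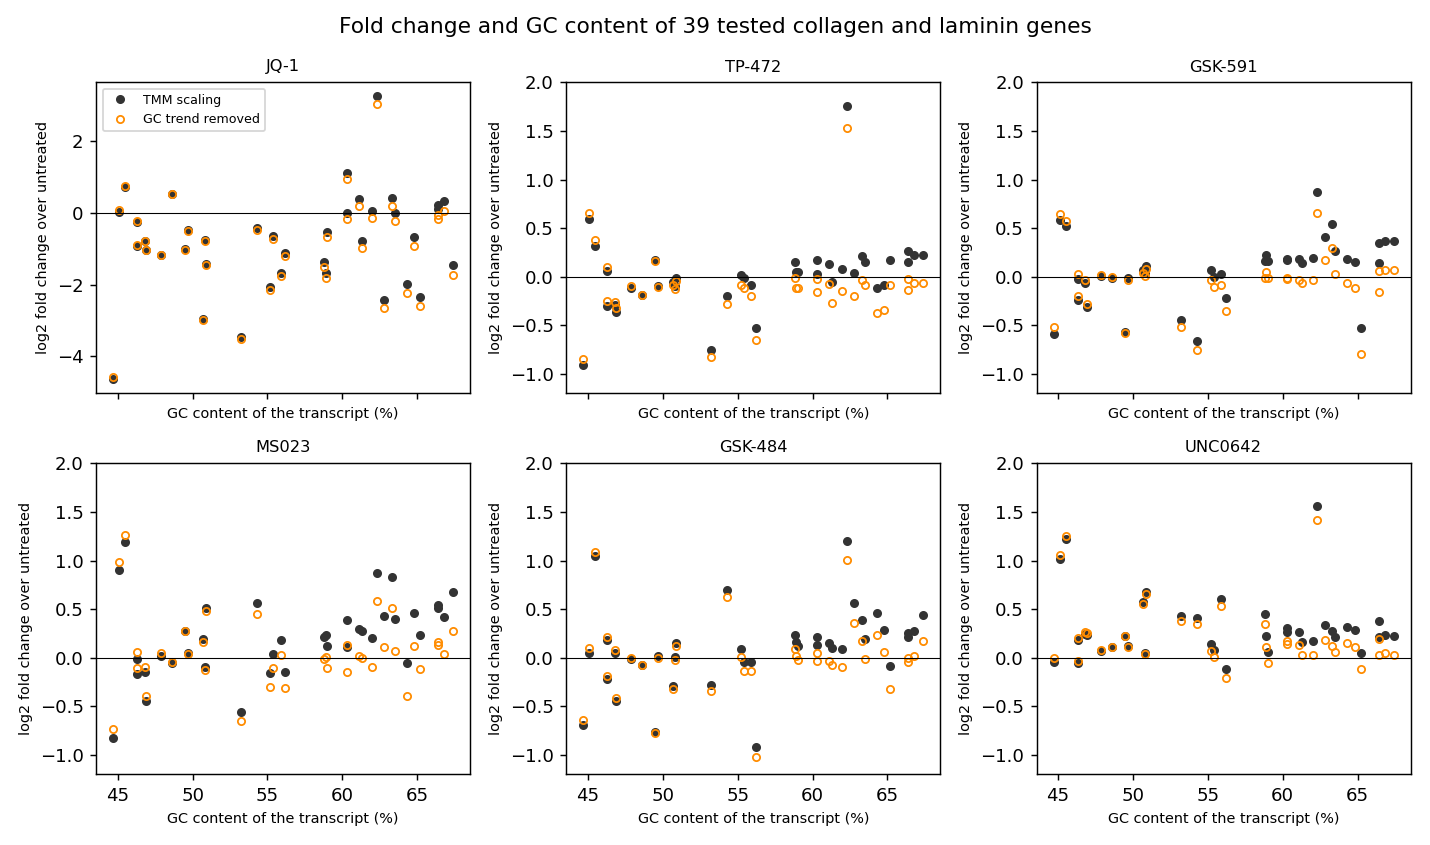
Log2 fold change over untreated cells against transcript GC content (%) for 39 of the 40 tested members, a panel for each compound, with filled points for TMM scaling and open points for the fit with the GC trend removed. The JQ-1 panel has its own vertical scale. At high GC content the open points lie below the filled ones in every panel, and at low GC content both nearly coincide.

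With TP-472, 5 members rose and 2 fell of 40, with a background of 31.3% of all genes, 17.0% higher and 14.3% lower. COL6A2 had 73.6, 79.7 and 80.02 CPM with TP-472, against 63.8, 66.3 and 64.7 CPM in untreated cells (log2 fold change of 0.26 with SE 0.051, adjusted p = 0.000626 by edgeR), and COL18A1 had 309, 323 and 309.9 CPM with TP-472, against 263, 279 and 265 CPM in untreated cells (log2 fold change of 0.23 with SE 0.051, adjusted p = 0.00197 by edgeR). COL9A3 had 15.6, 15.3 and 15.2 CPM with TP-472 and 12.4, 12.7 and 14.1 CPM in untreated cells (log2 fold change of 0.23 with SE 0.082, adjusted p = 0.0377 by edgeR), and LAMB2 had 209.5, 215 and 202 CPM with TP-472, against 189, 194 and 173 CPM in untreated cells (log2 fold change of 0.17 with SE 0.045, adjusted p = 0.00615 by edgeR). COL9A3 lost its call when any of 5 libraries was left out (0.19 to 0.24), and the fifth rise, in COL6A1 (0.15, SE 0.049), was lost without TP-472 replicate 2 (0.14), untreated replicate 1 (0.14) or untreated replicate 3 (0.13). None of these 5 was called over untreated cells with the trend removed. The falls were in COL12A1, a fibril-associated collagen, which had 189.8, 189.5 and 181 CPM with TP-472 and 263, 232 and 194 CPM in untreated cells (log2 fold change of -0.30 with SE 0.081, adjusted p = 0.00741 by edgeR), and in LAMC1. LAMC1 had 236, 232 and 233 CPM with TP-472, against 284, 271 and 244 CPM in untreated cells (log2 fold change of -0.19 with SE 0.052, adjusted p = 0.00759 by edgeR). Without untreated replicate 1, neither was called (COL12A1 -0.19, LAMC1 -0.14), and 4 members were called in all. With the trend removed 0 rose and 6 fell (COL7A1, COL27A1, COL12A1, LAMC1, LAMB3 and COL13A1; background of 10.1% of all genes, 4.53% higher and 5.57% lower). Against the other treated groups 0 rose and 8 fell (background of 8.41% of all genes, 3.72% higher and 4.68% lower), and with the trend removed 0 and 12 (background of 11.2% of all genes, 4.77% higher and 6.40% lower). In that last fit COL7A1 stood at -0.38 (SE 0.043) and COL16A1 at -0.40 (SE 0.090). Called lower there were also COL9A3 (-0.20), COL6A1 (-0.12) and COL18A1 (-0.10), with edgeR adjusted p = 0.00606, 0.0183 and 0.00861. All 3 had been called higher over untreated cells in the TMM fit, where COL16A1 was not called (0.036, SE 0.13). LAMC1 was the member called lower in all 3 fits (-0.19, -0.19 and -0.18).

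With UNC0642, 12 members rose and 0 fell of 40, with a background of 15.9% of all genes, 9.11% higher and 6.78% lower, and the median fold change of the members was 0.23 against 0.024 for all genes tested. COL17A1 had 9.22, 8.53 and 9.80 CPM with UNC0642, against 5.90, 6.08 and 6.08 CPM in untreated cells (log2 fold change of 0.61 with SE 0.077, adjusted p = 0.000112 by edgeR), and every UNC0642 library lay above the 18 others. COL22A1 had 24.8, 27.4 and 28.2 CPM with UNC0642, against 20.2, 18.5 and 19.96 CPM in untreated cells (log2 fold change of 0.46 with SE 0.059, adjusted p = 0.000134 by edgeR). LAMA5 (23.01, 25.02 and 25.7 CPM with UNC0642, 20.5, 19.8 and 16.7 CPM in untreated cells, 0.37, SE 0.076) and COL5A1 (109, 124 and 122 CPM with UNC0642, 98.4, 101 and 88.7 CPM in untreated cells, 0.30, SE 0.057) rose as well. With the trend removed COL17A1 (0.53, SE 0.075) and COL22A1 (0.35, SE 0.060) were the 2 called (background of 2.33% of all genes, 1.11% higher and 1.22% lower). Against the other 4 treated groups 10 rose and 2 fell (background of 26.0% of all genes, 14.5% higher and 11.5% lower). The falls were in COL9A3 (-0.21) and in COL6A2 (-0.13), which the TMM fit called higher over untreated cells (0.21). Against the other 4 treated groups with the trend removed 17 were called, all higher (background of 24.7% of all genes, 14.6% higher and 10.1% lower), including COL12A1 (0.39, SE 0.059), LAMA4 (0.61, SE 0.18), COL8A1 (0.34, SE 0.082) and LAMC1 (0.19, SE 0.038). The comparison groups of TP-472 and UNC0642 in this fit share libraries and each holds the other compound, so the values of the 2 compounds are not independent. COL12A1 had a mean of 260 CPM with UNC0642, 230 CPM in untreated cells and 187 to 205 CPM in the other 4 treated groups. In the same order LAMA4 had 1.81, 1.53 and 1.12 to 1.21 CPM and COL8A1 9.62, 8.15 and 6.68 to 8.49 CPM. LAMC1 had 288, 266.5 and 234 to 265 CPM. None of COL12A1, LAMA4, COL8A1 and LAMC1 was called over untreated cells with the trend removed.

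**Figure D5:**
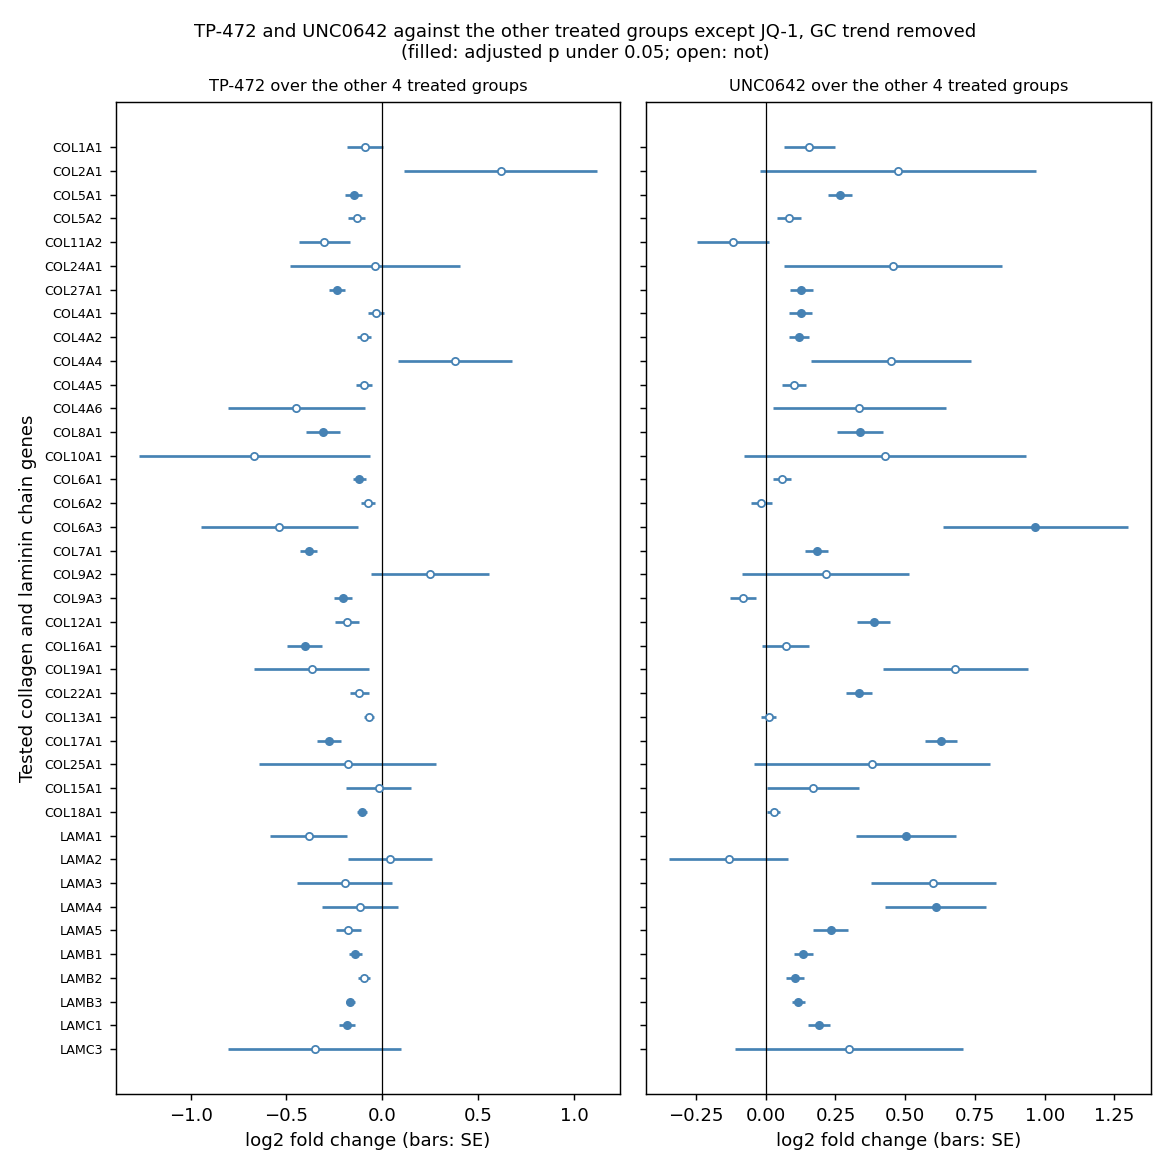
Log2 fold change of TP-472 (left) and UNC0642 (right) over the mean of the other 4 treated groups except JQ-1, GC trend removed, for 39 of the 40 tested members by class, with bars for the SE, filled where the edgeR adjusted p is under 0.05. TP-472 has 12 filled points, all below 0, and UNC0642 has 17, all above 0.

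With MS023, 14 rose and 0 fell (background of 41.8% of all genes, 21.9% higher and 19.9% lower). With GSK-591 12 rose and 1 fell (background of 32.2% of all genes, 17.5% higher and 14.6% lower), and with GSK-484 10 rose and 0 fell (background of 18.7% of all genes, 11.1% higher and 7.60% lower). COL9A3 had 20.3, 22.4 and 19.8 CPM with MS023, against 12.4, 12.7 and 14.1 CPM in untreated cells (log2 fold change of 0.67 with SE 0.081, adjusted p = 1.58e-06 by edgeR), and it alone among members with MS023 was called higher in each of the 3 fits (0.28 with the trend removed and 0.23 against the other treated groups with the trend removed). COL11A2 had 4.27, 3.68 and 4.11 CPM with MS023, against 2.503, 1.97 and 2.26 CPM in untreated cells (log2 fold change of 0.83 with SE 0.17, adjusted p = 0.000397 by edgeR). LAMA5 had 29.1, 28.9 and 25.1 CPM with MS023, against 20.5, 19.8 and 16.7 CPM in untreated cells (log2 fold change of 0.55 with SE 0.076, adjusted p = 8.59e-06 by edgeR), and COL6A2 had 89.6, 98.6 and 88.9 CPM with MS023, against 63.8, 66.3 and 64.7 CPM in untreated cells (log2 fold change of 0.51 with SE 0.051, adjusted p = 2.41e-07 by edgeR). With GSK-591, the largest named rises were in COL11A2 (3.73, 2.73 and 3.29 CPM with GSK-591, 0.54, SE 0.18), COL16A1 (7.40, 7.53 and 6.36 CPM, 0.41, SE 0.13), COL9A3 (0.37, SE 0.084) and COL18A1 (0.37, SE 0.051). COL11A2 was not called without GSK-591 replicate 1 (0.44) or 3 (0.54) or untreated replicate 2 (0.46), nor COL16A1 without GSK-591 replicate 1 (0.38) or 2 (0.37) or untreated replicate 3 (0.35). Without GSK-591 replicate 1, 8 members were called. With GSK-484, COL16A1 had 9.05, 6.79 and 7.66 CPM, against 5.71, 5.34 and 4.84 CPM in untreated cells (log2 fold change of 0.56 with SE 0.12, adjusted p = 0.00465 by edgeR), and COL9A3 (0.44, SE 0.082), COL7A1 (0.29, SE 0.059) and COL18A1 (0.28, SE 0.051) rose. With the trend removed, 3 members rose and 1 fell with MS023 (background of 14.2% of all genes, 7.18% higher and 6.99% lower). The fall was in COL13A1 (-0.11, edgeR adjusted p = 0.037), which the TMM fit called higher (0.12, edgeR adjusted p = 0.0185). GSK-591 with the trend removed had 0 of 40 called (background of 11.6% of all genes, 6.56% higher and 5.07% lower), as did GSK-484 (background of 0.425% of all genes, 0.222% higher and 0.203% lower). Against the other treated groups 9 rose and 0 fell with MS023 (background of 18.5% of all genes, 9.88% higher and 8.65% lower), and 4 rose and 1 fell with the trend removed (background of 12.3% of all genes, 5.68% higher and 6.61% lower). GSK-591 had 0 called in these fits (background of 7.23% of all genes, 3.84% higher and 3.39% lower; background of 9.84% of all genes, 5.35% higher and 4.49% lower), as did GSK-484 (background of 0.111% of all genes, 0.0720% higher and 0.0392% lower; background of 0.124% of all genes, 0.0916% higher and 0.0327% lower). With total-count scaling, 13 rose and 3 fell with MS023.

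The 2 bromodomain inhibitors and the 2 methyltransferase inhibitors were also tested against each other, without the untreated libraries. TP-472 over JQ-1 gave 26 higher and 3 lower of 40 (background of 71.7% of all genes, 37.1% higher and 34.6% lower; with the trend removed 26 and 4, background of 72.9% of all genes, 36.9% higher and 36.0% lower), with LAMB3 (1.74, SE 0.038), COL16A1 (2.47, SE 0.17), COL9A3 (1.68, SE 0.096) and COL17A1 (1.60, SE 0.097) higher and LAMB2 (-0.95, SE 0.045) and LAMC1 (-0.71, SE 0.052) lower with TP-472. GSK-591 over MS023 gave 0 higher and 5 lower (background of 9.54% of all genes, 5.05% higher and 4.49% lower), and with the trend removed 0 and 4 (background of 10.2% of all genes, 5.61% higher and 4.57% lower). LAMA5 had 22.9, 20.6 and 19.4 CPM with GSK-591, against 29.1, 28.9 and 25.1 CPM with MS023 (log2 fold change of -0.41 with SE 0.078, adjusted p = 0.00211 by edgeR), and COL7A1 had 464, 443 and 418 CPM with GSK-591, against 559, 567 and 519 CPM with MS023 (log2 fold change of -0.31 with SE 0.059, adjusted p = 0.00166 by edgeR). COL9A3 (-0.30, SE 0.081), LAMB2 (-0.20, SE 0.045) and COL6A2 (-0.17, SE 0.051) were also lower with GSK-591. Without GSK-591 replicate 3 or MS023 replicate 2, 3 of these 5 were called, since COL6A2 (-0.11 in each case) and COL9A3 (-0.21 and -0.24) were lost, and COL6A2 was also lost without GSK-591 replicate 2 or MS023 replicate 1 (-0.18 and -0.19).

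Genes that work with the chains were counted from lists. Of 12 tested basement membrane partners, 2 rose and 8 fell with JQ-1 (median -0.60), and with the trend removed 1 and 10 (median -0.63). For all 3 lists these counts stand beside the 72.5% of all genes called with JQ-1 (35.4% higher, 37.2% lower), and 73.2% with the trend removed. Falls included the laminin-binding netrin NTN4 (-2.56, SE 0.047), the nidogens NID1 (-0.83, SE 0.047) and NID2 (-0.99, SE 0.073), which link laminin to collagen IV, and SPARC (-0.56, SE 0.026), which binds collagen. AGRN, a proteoglycan that binds laminin, rose (0.78, SE 0.064). Of 27 genes for collagen folding and secretion, 13 rose and 10 fell with JQ-1 (median 0.032), whereas 10 rose and 12 fell with the trend removed (median -0.12). SERPINH1, the collagen chaperone, fell (-1.12, SE 0.045), and P3H1, a prolyl 3-hydroxylase, rose (1.02, SE 0.047). Of 16 receptors, 9 rose and 6 fell (median 0.18), and 7 and 5 with the trend removed (median 0.088), with ITGA3, an alpha subunit of laminin receptors, higher (1.05, SE 0.036), and the collagen receptor DDR1 (-1.53, SE 0.048) and the laminin receptor subunit ITGB4 (-1.05, SE 0.18) lower. With the other compounds, calls in the partner list were 2 higher and 1 lower with TP-472 (31.3% of all genes called), 7 and 0 with GSK-591 (32.2%), 7 and 0 with MS023 (41.8%), 2 and 0 with GSK-484 (18.7%), then 3 and 0 for UNC0642 (15.9%). With the trend removed they were 0 and 1 with TP-472 (10.1% of all genes called), 3 and 0 with GSK-591 (11.6%), 2 and 0 with MS023 (14.2%), 0 and 0 with GSK-484 (0.425%), then 0 and 0 for UNC0642 (2.33%).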

How the data were processed

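RNA of 21 libraries was counted. The authors deposited expected counts per gene, made with Bowtie2 2.1.0 and RSEM 1.2.15 on hg38 per the submitters' processing notes. These were rounded, and genes with at least 10 counts in at least 3 libraries were scaled by TMM and fitted with the quasi-likelihood test of edgeR 4.0.16 (limma 3.58.1, R 4.3.3, Python 3.11.15) by group over all libraries, with Benjamini-Hochberg adjustment over all genes tested. The GC trend was a loess curve per library (span 0.3, 4 iterations, prior count 2) on GENCODE 29 transcripts. Other alternatives were RLE and total-count scaling, 2 other filters, DESeq2 1.42.0, the 2 groups alone, the replicate block and leaving out each library. The pipeline was tested on simulated data. Members and lists were chosen with earlier results of these data known. Values per library were given for the 4 largest called rises and falls per comparison (at least 3 CPM, no overlap) and for partner chains; 1 tested member enters the counts but is not reported by name here or drawn. Intervals cover counting error only, since reads without molecular identifiers are not independent molecules.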

Additional observations from a re-analysis of the deposited data

How the results depend on the processing

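With JQ-1 the count of called members kept within 1.5 times of 32 under each alternative run, and so did that of TP-472 over JQ-1 (29). Each other count did not under at least 1 alternative. With 40 members tested, the upper limit could not be passed for JQ-1 or for TP-472 over JQ-1, and the criterion ignores direction. Rises and falls with JQ-1 were 7 and 25 in the TMM fit and 3 and 29 with the GC trend removed. Those with TP-472 were 5 and 2, then 0 and 6. With the GC trend removed, called members numbered 0 with GSK-591, 4 with MS023, 0 with GSK-484 and 2 with UNC0642, and the same 4 counts came with the replicate block added. Against the other treated groups they numbered 0 with GSK-591, 9 with MS023 and 0 with GSK-484, and with the trend also removed 12 with TP-472, 0 with GSK-591, 5 with MS023 and 0 with GSK-484. With the 2 groups alone, 0 were called with GSK-484, where 9 of 14526 genes passed. Leaving out each library in turn gave 28 to 32 with JQ-1, 4 to 8 with TP-472, 8 to 13 with GSK-591, 12 to 15 with MS023, 8 to 11 with GSK-484, 10 to 16 with UNC0642, 26 to 28 for TP-472 over JQ-1 and 3 to 5 for GSK-591 over MS023. Replicate numbers did not pair the libraries: deviations of same-numbered libraries correlated at -0.116 to 0.111, and 4 of 21 libraries correlated best with their own number. With the replicate block the counts were 32, 7, 14, 14, 10, 12, 29 and 5 in the order above. Low counts limit COL6A3, COL19A1, COL2A1, LAMA3 and LAMC3. Sign changes of genes called in neither the TMM fit nor the alternative are not listed. Of the values recomputed gene by gene, 98 changed sign with a call in at least 1 of the fits compared. Of these, 26 came from the fit against the other treated groups and 26 from that fit with the GC trend removed. Those 2 fits have another reference, so a change of sign there is not one of processing alone. All 98 are given next, and the cause was not tested. With the GC trend removed, values of opposite sign for GSK-484 were COL13A1 -0.021, COL6A1 -0.017. For GSK-591 they were COL13A1 -0.0079, COL27A1 -0.065, COL4A2 -0.033, COL5A1 -0.019, LAMB2 -0.011. For MS023 they were COL13A1 -0.11, COL22A1 -0.014, COL27A1 -0.0032, COL4A2 -0.094. For TP-472 they were COL13A1 -0.12, COL18A1 -0.061, COL6A1 -0.086, COL6A2 -0.021, COL9A3 -0.066, LAMB2 -0.018, LAMB3 -0.12. For JQ-1 they were COL4A2 -0.15, COL5A1 -0.17, COL6A2 -0.17, LAMA5 -0.050. With the GC trend removed and the replicate block, values of opposite sign for GSK-484 were COL13A1 -0.020, COL6A1 -0.017, COL6A2 -0.00030. For GSK-591 they were COL13A1 -0.0073, COL27A1 -0.066, COL4A2 -0.033, COL5A1 -0.017, LAMB2 -0.0091. For MS023 they were COL13A1 -0.11, COL22A1 -0.013, COL27A1 -0.0040, COL4A2 -0.094. For TP-472 they were COL13A1 -0.12, COL18A1 -0.061, COL6A1 -0.086, COL6A2 -0.023, COL9A3 -0.066, LAMB2 -0.018, LAMB3 -0.12. For JQ-1 they were COL4A2 -0.15, COL5A1 -0.17, COL6A2 -0.17, LAMA5 -0.049. Against the other treated groups, values of opposite sign for JQ-1 were COL11A2 -0.023, COL4A2 -0.089, COL5A1 -0.15, COL6A2 -0.21, LAMA5 -0.059. For TP-472 they were COL16A1 -0.40, COL18A1 -0.097, COL6A1 -0.11, COL6A2 -0.067, COL9A3 -0.20, LAMB2 -0.092, LAMB3 -0.16. For GSK-484 they were COL18A1 -0.032, COL22A1 -0.015, COL6A1 -0.065, COL6A2 -0.081, LAMB2 -0.041, LAMB3 -0.019. For UNC0642 they were COL18A1 -0.092, COL19A1 0.71, COL6A1 -0.040, COL6A2 -0.13, COL9A3 -0.21. For MS023 they were COL22A1 -0.036. For GSK-591 they were COL9A3 -0.022, LAMB2 -0.076. Against the other treated groups with the GC trend removed, values of opposite sign for JQ-1 were COL11A2 -0.017, COL4A2 -0.084, COL5A1 -0.13, COL6A2 -0.21, LAMA5 -0.054. For MS023 they were COL13A1 -0.059, COL16A1 -0.015, COL22A1 -0.12, COL4A2 -0.034, COL5A1 -0.14, LAMB3 -0.0042. For TP-472 they were COL16A1 -0.40, COL18A1 -0.10, COL5A1 -0.15, COL6A1 -0.12, COL6A2 -0.075, COL9A3 -0.20, LAMB2 -0.096, LAMB3 -0.17. For GSK-484 they were COL18A1 -0.0010, COL6A1 -0.034, COL6A2 -0.047, LAMB2 -0.013. For UNC0642 they were COL6A2 -0.015. For GSK-591 they were COL9A3 -0.039, LAMB2 -0.086. With total-count scaling, values of opposite sign for JQ-1 were COL5A1 -0.14.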
